A study of Mus musculus with 20 samples.

Results

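The Dlk1-Dio3 imprinted cluster lies on distal mouse chromosome 12, and 5 of its genes (Dlk1, Meg3, Rian, Mirg and Rtl1) were followed here by gene symbol through 20 poly(A)-selected RNA-seq libraries of embryonic stem cells (ESC), stem cell lines derived from primordial germ cells (PGC-ESC) and epiblast-like cells (EpiLC). All 5 symbols were rows of the deposited count table, which holds 21361 genes, and all 5 passed the filter on low counts. Imprinted genes are expressed from the copy inherited from one parent. In this cluster the protein-coding genes Dlk1, Rtl1 and Dio3 are expressed from the paternal copy, and the long non-coding RNAs Meg3 (also called Gtl2), Rian and Mirg from the maternal copy, with the small nucleolar RNAs and microRNAs that lie within and between them. A differentially methylated region between Dlk1 and Meg3, methylated on the paternal copy since the male germ line, separates the 2 patterns, and loss of Meg3, Rian and Mirg RNA in cultured mouse pluripotent cells is a known sign that the maternal copy has been silenced.

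The tested cells were EpiLCs made from 3 PGC-ESC DKO lines (EpiLC DKO), EpiLCs made from 2 wildtype host ESC lines (EpiLC Host), 5 PGC-ESC lines lacking Bax (PGC-ESC BaxKO) and 3 PGC-ESC lines lacking both Puma and Noxa (PGC-ESC DKO). They were set beside 2 embryo-derived ESC lines lacking Bax (ESC BaxKO), 1 ESC line heterozygous for Bax (ESC BaxHet) and 4 wildtype ESC lines from host embryos (ESC Host). Bax, Puma and Noxa are genes that promote apoptosis. All Bax lines, knockout and heterozygous, carry the strain label C57Bl6J/129SvEvRoEp, and all Host and DKO lines are C57Bl6J, so Bax genotype and strain cannot be told apart between these sets. All 20 libraries have the same culture protocol in the labels, 2i/LIF medium on gelatin (2i is a MEK and a GSK3 inhibitor), and the steps that turn ESCs into EpiLCs are not given there. Each library is a line of its own except that the EpiLC lines carry the numbers of the lines they came from. The p-values of the group comparisons measure the spread between lines, and that fit treats an EpiLC library and its parent line as independent. In the fits paired by cell line the p-values measure how the change on conversion varies between lines. The labels do not say whether lines share an embryo.

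Library totals ran from 14255399 to 33376660 counts. Bax had 1.82 to 2.29 CPM (a gene's count scaled by its library's total) in the PGC-ESC BaxKO lines and 1.66 to 2.43 CPM in the ESC BaxKO lines, against 283 to 533 CPM in ESC Host. Pmaip1 (Noxa) had 1.26 to 4.35 CPM in PGC-ESC DKO, against 20.2 to 52.7 CPM in ESC Host. Its level was 4.34 to 43.4 CPM in PGC-ESC BaxKO and 6.27 to 9.54 CPM in ESC BaxKO, so low Pmaip1 alone does not mark the DKO stem cell lines. In EpiLC DKO it had 3.86 to 5.69 CPM, against 314 to 333 CPM in EpiLC Host. Bbc3 (Puma) had 27.5 to 49.2 CPM in PGC-ESC DKO, against 38.5 to 49.7 CPM in ESC Host, and since the labels do not say which part of Puma was deleted its row checks nothing. In both EpiLC responses (EpiLC DKO against PGC-ESC DKO and EpiLC Host against ESC Host) 12 of 12 tested naive pluripotency genes fell and 7 of 8 tested formative epiblast genes rose. Of all tested genes 22.5% fell and 25.1% rose in the DKO response, and 21.7% fell and 22.4% rose in the Host response. The ribosomal precursor Rn45s split the libraries into 9 with 1913 to 5106 CPM (all PGC-ESC BaxKO, ESC BaxKO 1, ESC BaxHet, ESC Host 1 and 2) and 11 with 17130.3 to 51924.5 CPM.

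The 5 genes run in the order Dlk1, Meg3, Rtl1, Rian and Mirg on chromosome 12, here in RefSeq positions on build GRCm38.p6 (the mm10 build the submitters name). Dlk1, the Notch-related membrane and secreted protein Delta-like 1 homologue, spans chr12:109452485-109463336 on the plus strand. Meg3 spans chr12:109540996-109571729, Rian, the host of the cluster's small nucleolar RNAs, spans chr12:109603945-109661716, and Mirg, the host of a large microRNA group, spans chr12:109734981-109749458, all 3 on the plus strand. Rtl1, a retrotransposon-derived protein gene needed in the placenta, spans chr12:109564900-109604418 on the minus strand, where it overlaps Meg3 over 6830 bases and Rian over 474 bases. The GENCODE annotation gives Rtl1 a shorter span, chr12:109589193-109600330, which overlaps neither Meg3 nor Rian. Which annotation was used for counting is not known. Whether the counting used strand is unknown, so reads from Rtl1 and from the maternal RNA that runs opposite to it cannot be told apart. That maternal RNA carries microRNAs fully complementary to Rtl1, which cut its transcript in mice. Their mature sequences (RefSeq, GRCm38.p6) show what lies inside the Rtl1 row, with the seed (bases 2 to 8) in capitals:
mmu-miR-127-3p: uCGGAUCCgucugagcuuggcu
mmu-miR-433-3p: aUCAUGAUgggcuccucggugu
mmu-miR-136-5p: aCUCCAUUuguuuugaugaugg
mmu-miR-434-3p: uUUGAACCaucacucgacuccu
mmu-miR-431-5p: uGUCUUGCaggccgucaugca
These 5 seeds all differ. The microRNA gene whose row followed Meg3 most closely across libraries, Mir3072 inside Mirg, gives these 2 arms:
mmu-miR-3072-5p: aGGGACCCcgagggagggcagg
mmu-miR-3072-3p: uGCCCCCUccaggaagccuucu

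The promoters of Meg3 and Dlk1 are shown because the RNA of these 2 genes did not move together among the stem cell lines, although both rose in EpiLCs. Each runs from 250 bases before to 50 bases after the start site in the RefSeq promoter table, on the plus strand, with CG dinucleotides (the bases that DNA methylation marks) in capitals. The Meg3 window is chr12:109540746-109541045 and the Dlk1 window is chr12:109452573-109452872. For Dlk1 the table's start site lies inside the gene span given above, so that window is wholly within the span.
Meg3: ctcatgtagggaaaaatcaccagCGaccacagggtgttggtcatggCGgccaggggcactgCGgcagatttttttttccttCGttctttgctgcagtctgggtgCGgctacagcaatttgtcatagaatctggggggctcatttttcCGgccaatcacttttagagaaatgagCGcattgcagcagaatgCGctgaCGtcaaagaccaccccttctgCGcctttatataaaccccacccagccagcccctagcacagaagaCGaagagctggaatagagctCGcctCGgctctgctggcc
Dlk1: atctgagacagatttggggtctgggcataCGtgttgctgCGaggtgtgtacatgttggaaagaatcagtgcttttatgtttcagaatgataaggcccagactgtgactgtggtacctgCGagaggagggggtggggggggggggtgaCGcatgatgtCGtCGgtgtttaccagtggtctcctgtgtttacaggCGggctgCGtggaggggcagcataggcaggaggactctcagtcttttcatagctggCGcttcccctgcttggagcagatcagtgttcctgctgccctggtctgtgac
The Meg3 window holds 13 CG dinucleotides and 37.9% of 32851 mouse promoter windows hold at least as many. The Dlk1 window holds 9 (45.8%), the Mirg window 10 (43.5%) and the Rian window 0, where the median over all windows is 7. The letters TGCCGC, the core recognised by the imprint-protecting zinc finger protein ZFP57, were searched on both strands (TGCCGC or GCGGCA). They occur 1 time in the Meg3 window shown, are not in the Dlk1, Rian or Mirg windows, and 11.6% of all windows hold them. The promoter table also lists another Meg3 start site, with the window chr12:109545148-109545447. That window holds 1 CG dinucleotide (94.6% of windows hold at least as many) and no TGCCGC. RNA-seq does not read methylation, and none was analysed here.

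Every library held RNA of the maternal genes. Meg3 had at least 1024 counts and Rian at least 1114 counts in each of the 20 libraries, so no line was without them. Per kilobase of exon the median level over the 15 ESC and PGC-ESC libraries was 9.66 CPM per kb for Meg3, 8.73 for Rian, 1.73 for Mirg, 0.321 for Rtl1 and 0.0615 for Dlk1. In the 5 EpiLC libraries the same medians were 26.3 for Meg3, 25.2 for Rian, 4.95 for Mirg, 1.15 for Rtl1 and 2.79 for Dlk1. Dlk1 therefore stood last in stem cells and above Rtl1 in EpiLCs.

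Single PGC-ESC BaxKO lines differed widely in the maternal RNAs. Meg3 had 62.8, 368, 54.8, 175 and 625 CPM in PGC-ESC BaxKO lines 1 to 5. It had 251, 234 and 111 CPM in PGC-ESC DKO lines 1 to 3, 438 and 485 CPM in the ESC BaxKO lines, 170.4 CPM in ESC BaxHet, and 103, 265, 163 and 73.8 CPM in ESC Host lines 1 to 4. PGC-ESC BaxKO 3 and 1 were the lowest of the 15 stem cell libraries and PGC-ESC BaxKO 5 the highest, so the whole range of the stem cell lines lay within this group. In bulk RNA, fewer cells with an active copy and less RNA per cell cannot be told apart.

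Rian and Mirg placed the same lines at the extremes. Rian had 68.4, 336, 60.6, 154 and 589.7 CPM in PGC-ESC BaxKO lines 1 to 5, and 260.2, 212 and 114 CPM over PGC-ESC DKO lines 1 to 3. It had 359.8 and 354 CPM in ESC BaxKO, 148 CPM in ESC BaxHet and 103, 251, 159 and 70.5 CPM in ESC Host lines 1 to 4. Mirg had 5.28, 24.0, 4.65, 12.4 and 46.1 CPM in PGC-ESC BaxKO lines 1 to 5, against 20.5, 23.6 and 9.40 CPM in PGC-ESC DKO lines 1 to 3. Mirg had 27.1 and 31.9 CPM in ESC BaxKO, 10.5 CPM in ESC BaxHet and 7.95, 18.6, 12.6 and 10.1 CPM in ESC Host. Lines 3 and 1 of PGC-ESC BaxKO held the lowest and second lowest places for Meg3, Rian, Mirg and Rtl1 alike, and line 5 the highest for all 4.

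**Figure D1:**
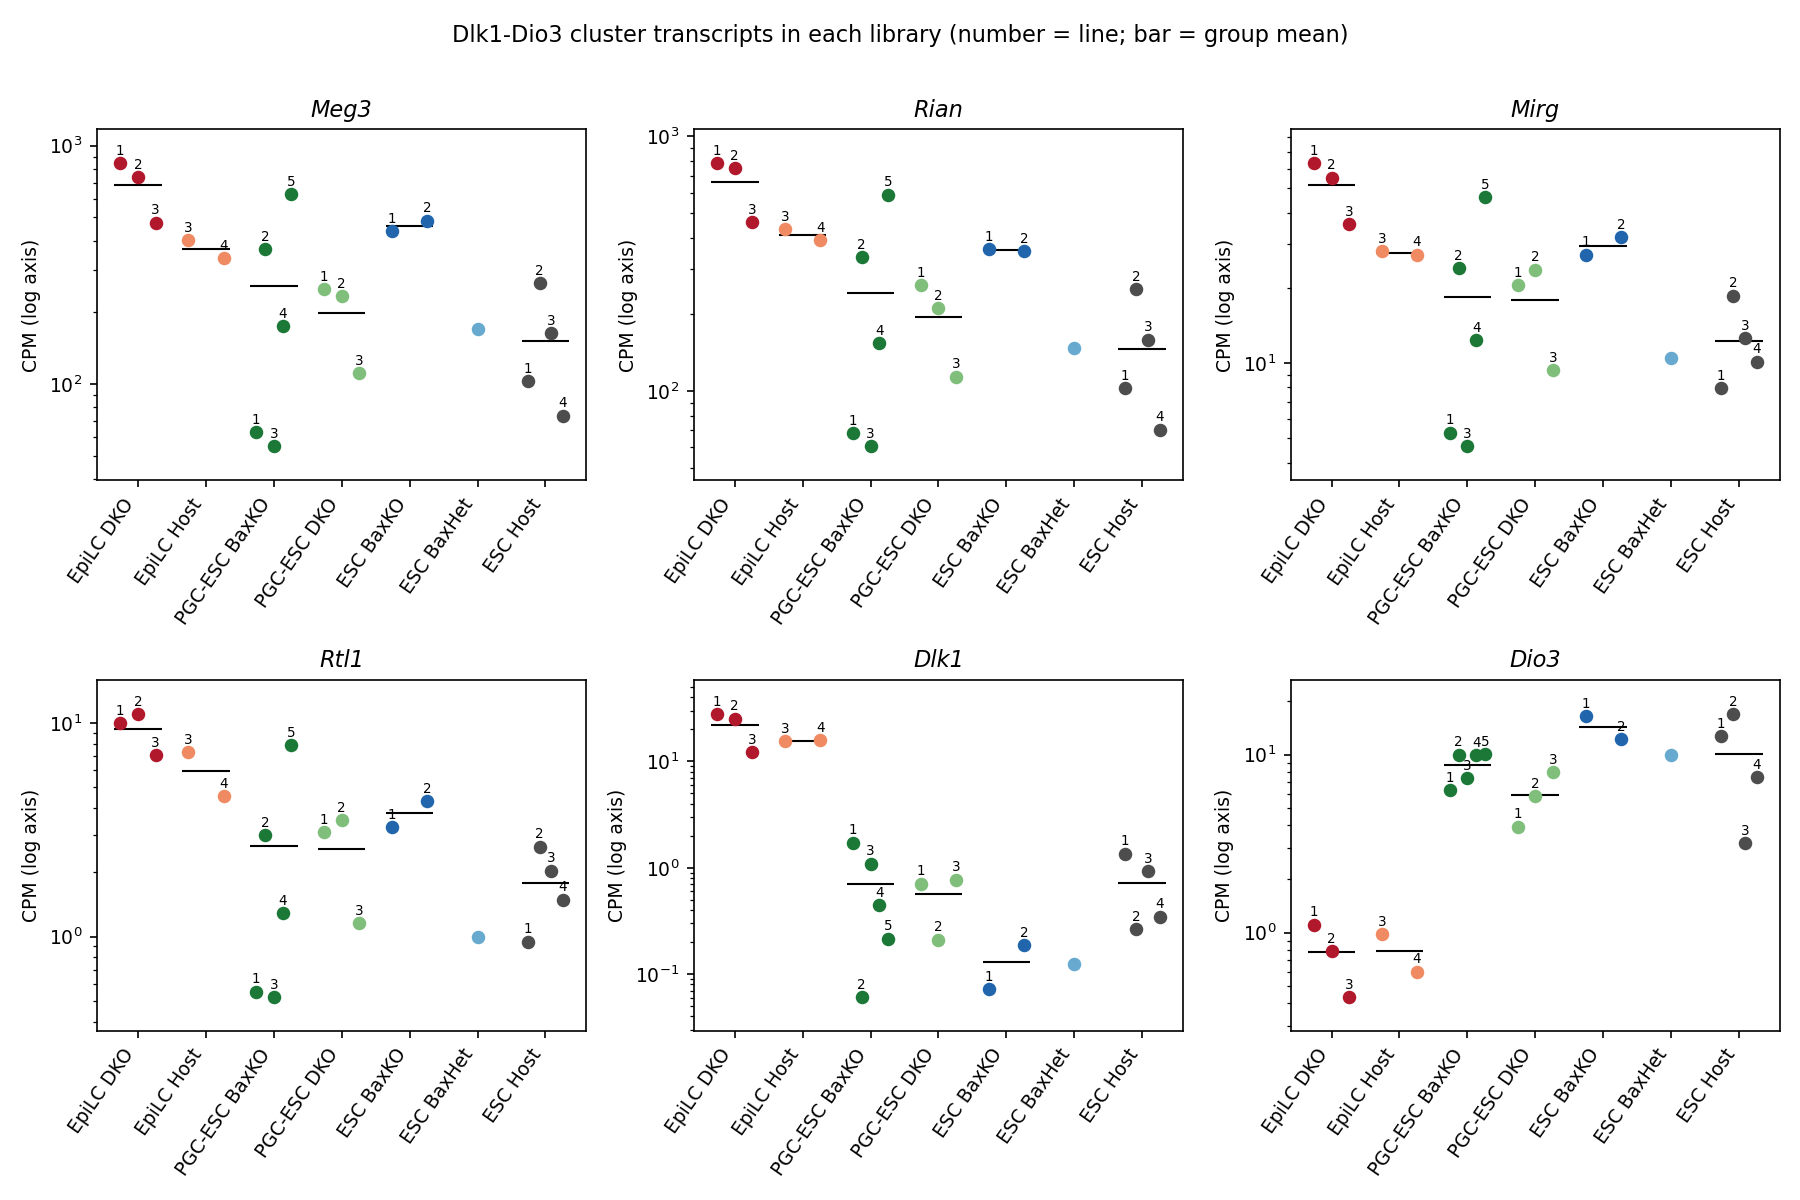
CPM of Meg3, Rian, Mirg, Rtl1, Dlk1 and Dio3 in each of the 20 libraries on a log axis, by group, with line numbers beside the points and bars at group means. PGC-ESC BaxKO lines 1 and 3 (62.8 and 54.8 CPM) lie at the bottom of the Meg3 panel and line 5 (625 CPM) stands above all other stem cell lines, while Dlk1 is above 12 CPM only in the EpiLC libraries.

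The 5 genes were among the most variable of the genome within PGC-ESC BaxKO. The SD of log2 CPM over the 5 lines was 1.56 for Meg3, 1.45 for Rian, 1.43 for Mirg, 1.60 for Rtl1 and 1.45 for Dlk1, where the median tested gene had 0.285. Between 98.1% and 98.8% of tested genes had a smaller SD than these 5 genes. Over the 4 ESC Host lines the SD was 0.72 for Meg3 and 0.71 for Rian, against a median of 0.38 over all genes, and 83.9% of tested genes varied less than Meg3. Mirg had 0.50 there, more than 65.9% of tested genes. In the 3 PGC-ESC DKO lines the SD of Meg3 was 0.71 and 87.6% of tested genes varied less. Over the 2 ESC BaxKO lines the median gene had 0.18, and the SD was 0.11 for Meg3 (35.9% of tested genes varied less), 0.0049 for Rian (3.29%), 0.18 for Mirg, 0.29 for Rtl1 (67.5%) and 0.57 for Dlk1 (86.7%).

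The ratios of the maternal RNAs to one another varied less than their levels. Per 100 Meg3 counts there were 73.1 to 115 Rian counts in the 20 libraries, with a median of 96.0. Mirg stood at 6.16 to 13.8 counts per 100 Meg3 counts with a median of 7.53, and the highest value, 13.8, was ESC Host 4, where the next was 10.1 in PGC-ESC DKO 2. In the ESC BaxKO lines, with more Meg3 than most, the ratio was 6.19 and 6.58 for Mirg and 82.1 and 73.1 for Rian. PGC-ESC BaxKO 5, the stem cell line with most Meg3, had 7.37 for Mirg and 94.3 for Rian. In PGC-ESC BaxKO 1 and 3, the lines with least Meg3, the ratio was 8.40 and 8.48 for Mirg and 109 and 111 for Rian. Low RNA in these lines was thus shared by the 3 genes.

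Over the 15 stem cell libraries 5 genes were compared with Meg3 on log2 CPM, with permutation tests over libraries (two-sided) and Benjamini-Hochberg adjustment over the 5 relations. Rian followed Meg3 with Pearson r = 0.993 and Spearman rho = 0.993 (n = 15, permutation p = 1e-05 for both, the smallest that 100000 permutations can give; adjusted p = 2.5e-05 and 1.67e-05). Mirg (r = 0.964, rho = 0.957) and Rtl1 (r = 0.921, rho = 0.929) did likewise, with permutation p of 2e-05 or less, and without the 2 libraries farthest from the Meg3 median, PGC-ESC BaxKO 5 and 3, r was 0.991 for Rian, 0.941 for Mirg and 0.871 for Rtl1. Within the 8 Bax lines r was 0.994 for Rian, 0.994 for Mirg and 0.972 for Rtl1. Within the 7 C57Bl6J lines it was 0.996 for Rian, 0.889 for Mirg and 0.864 for Rtl1. All libraries share depth and scaling across genes, and Rtl1 overlaps Meg3 in RefSeq, though not in GENCODE. These values therefore describe shared movement and not separate evidence for each gene.

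Presence of Y-linked RNA went with the maternal RNAs among the Bax lines. The 4 Bax lines with Y-linked RNA (mean over Y-linked genes 47.0 to 61.1 CPM) were PGC-ESC BaxKO 2 and 5 and both ESC BaxKO lines, with 368, 625, 438 and 485 CPM of Meg3. The 4 without it, PGC-ESC BaxKO 1, 3 and 4 and ESC BaxHet, had 62.8, 54.8, 175 and 170.4 CPM. These 2 sets did not overlap, and 8.43% of all tested genes were likewise higher without overlap in the lines with Y-linked RNA. In the same 4 libraries the X-linked genes stood 0.84, 0.78, 0.72 and 0.30 (log2) above the autosomal genes, relative to the mean over libraries. The C57Bl6J lines did not show this order: PGC-ESC DKO 3, with 42.8 CPM of Y-linked RNA, had 111 CPM of Meg3 against 251 and 234 CPM in DKO lines 1 and 2 without it. The part of sex chromosome content in the levels of Meg3 was not tested beyond adding it as a term to the comparisons.

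Rtl1, the paternal gene that lies opposite to the maternal RNA, followed Meg3 and not Dlk1. It had 0.552, 3.00, 0.523, 1.29 and 7.87 CPM in PGC-ESC BaxKO lines 1 to 5, 3.08, 3.51 and 1.16 CPM in the PGC-ESC DKO lines, 3.25 and 4.30 CPM in ESC BaxKO, 0.994 CPM in ESC BaxHet and 0.946, 2.64, 2.04 and 1.49 CPM in ESC Host lines 1 to 4. Its lowest values were in the 2 lines with least Meg3. Counts per 100 Meg3 counts were 0.584 to 2.02. With the strand setting unknown, the Rtl1 row may hold reads of either strand.

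Dlk1, the other paternal gene, was close to the limit of detection in stem cells and was low in the lines with most Meg3. It had 1.72, 0.0611, 1.10, 0.444 and 0.216 CPM in PGC-ESC BaxKO lines 1 to 5 (28, 2, 21, 11 and 5 counts). It had 0.707, 0.210 and 0.772 CPM in PGC-ESC DKO (23, 3 and 12 counts), 0.0722 and 0.187 CPM in ESC BaxKO (2 and 4 counts), 0.124 CPM in ESC BaxHet (4 counts) and 1.36, 0.264, 0.928 and 0.348 CPM in ESC Host lines 1 to 4 (36, 6, 30 and 7 counts). The line with most Dlk1, PGC-ESC BaxKO 1, was next to last for Meg3, and PGC-ESC BaxKO 2, last for Dlk1, was among the 4 highest for Meg3. The exact Poisson 95% interval was 1.14 to 2.48 CPM in PGC-ESC BaxKO 1 and 0.00740 to 0.221 CPM in PGC-ESC BaxKO 2, the highest and the lowest line. These intervals cover counting error only.

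Over the 15 stem cell libraries Dlk1 went down as Meg3 went up, with r = -0.747 (permutation p = 0.00186, adjusted p = 0.00233) and rho = -0.725 (permutation p = 0.0033, adjusted p = 0.00413). Without PGC-ESC BaxKO 5 and 3, r was -0.742 (permutation p = 0.00445). Within the 8 Bax lines r was -0.829 (exact permutation p = 0.0120) and rho -0.50 (exact permutation p = 0.216), and within the 7 C57Bl6J lines r was -0.463 (exact permutation p = 0.272). Within the 9 stem cell libraries with low Rn45s r was -0.840 (exact permutation p = 0.00661) and rho -0.75 (exact permutation p = 0.0255), and within the 6 with high Rn45s -0.510 (exact permutation p = 0.289). The relation kept its sign within each set. In the low Rn45s set both measures passed 0.05, and in the Bax lines, which share 7 libraries with it, Pearson's r passed and Spearman's rho did not. Dio3, at the far end of the cluster, had r = 0.309 with Meg3 over the 15 libraries (permutation p = 0.264), with 0.811 within the Bax lines (exact permutation p = 0.0125) and -0.244 within the C57Bl6J lines (exact permutation p = 0.573).

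A list of 11 fibroblast and feeder markers differed between these lines too. Its summed level was 25.2, 4.55, 14.5, 13.8 and 4.71 CPM in PGC-ESC BaxKO lines 1 to 5, the same order as Dlk1, and 4.64, 8.91 and 10.9 CPM over PGC-ESC DKO lines 1 to 3. The sum was 5.74 and 6.08 CPM in ESC BaxKO, 9.10 CPM in ESC BaxHet and 19.2, 8.71, 7.30 and 6.81 CPM in ESC Host lines 1 to 4, where line 1 was highest for the sum and for Dlk1. Over PGC-ESC BaxKO lines 1 to 5 the collagen gene Col1a1 had 192, 28, 118, 144 and 15 counts and the receptor gene Pdgfrb 118, 66, 81, 80 and 43. They had the most counts of the list in lines 1 to 4. In the PGC-ESC BaxKO lines the collagen gene Col3a1 and the matrix gene Postn were at 0, and Dcn (decorin) was at 0 in 4 of 5 lines and at 0.0523 CPM in line 3. The part of such cells in the level of Dlk1, and in its relation to Meg3, was not tested.

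**Figure D2:**
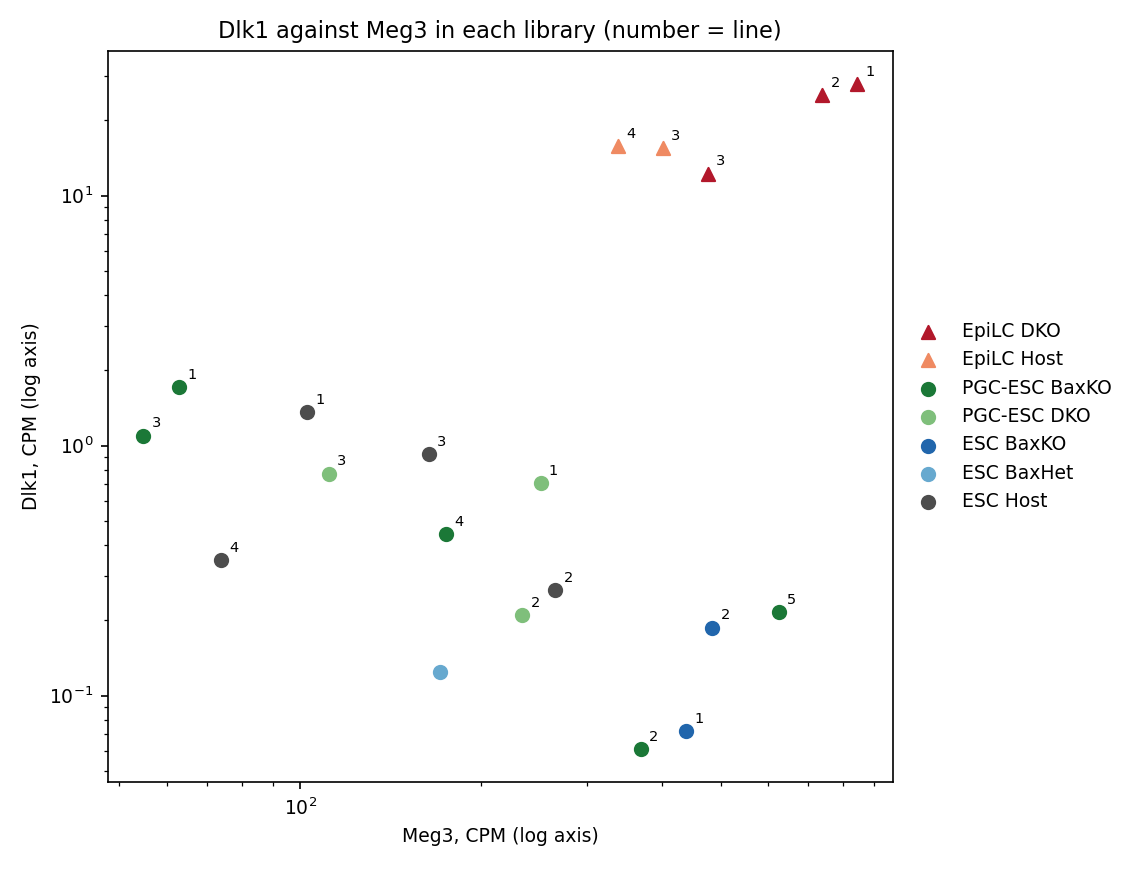
CPM of Dlk1 against CPM of Meg3 in each of the 20 libraries, both on log axes, coloured by group with line numbers. The 5 EpiLC libraries (triangles) lie at 12.3 CPM of Dlk1 or more, and among the 15 stem cell libraries (circles) the 4 with most Meg3 (368 to 625 CPM) all have 0.216 CPM of Dlk1 or less.

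Comparing PGC-derived with embryo-derived lines asks whether passage through a germ cell changes the imprinted state of the lines. With edgeR's quasi-likelihood F test over 16363 genes and Benjamini-Hochberg adjustment, 0 of the 5 genes passed an adjusted p of 0.05 in PGC-ESC BaxKO against ESC BaxKO, where 6 of all tested genes did (0.0367%). At an unadjusted p of 0.05 there was 1 gene, Dlk1, and DESeq2 called 0. Meg3 averaged 257 ± 242 CPM over the PGC-ESC BaxKO lines (SD, n = 5) and 461 ± 32.8 CPM in ESC BaxKO (SD, n = 2), a log2 fold change of -0.85 ± 0.66 (SE, edgeR adjusted p = 0.690), and the groups overlapped. Dlk1 averaged 0.707 ± 0.690 CPM over the PGC-ESC BaxKO lines and 0.130 ± 0.0812 CPM in ESC BaxKO, a log2 fold change of 2.33 ± 1.07 (edgeR adjusted p = 0.487). With Y-linked expression as a term, the Dlk1 value was 1.33 (edgeR adjusted p = 1).

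In the other strain the lines compared were PGC-ESC DKO and ESC Host. These groups also differ in genotype, Puma and Noxa knockout against wildtype, so derivation and genotype cannot be told apart there. In PGC-ESC DKO against ESC Host 0 of the 5 genes passed, against 19 of all tested genes (0.116%). At an unadjusted p of 0.05 there were 0, and DESeq2 called 0. Meg3 averaged 199 ± 76.1 CPM over the PGC-ESC DKO lines (SD, n = 3) and 151 ± 84.7 CPM in ESC Host (SD, n = 4), a log2 fold change of 0.51 ± 0.62 (edgeR adjusted p = 0.885). Rian, Mirg and Rtl1 had log2 fold changes of 0.53 to 0.63 and Dlk1 -0.27 ± 0.75. Averaged over both strain labels, 0 of the 5 genes passed, against 13 of all tested genes (0.0794%), and Meg3 had -0.17 ± 0.46. That average takes in PGC-ESC DKO against ESC Host and so has the same limit. These SEs do not show that the lines are alike.

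Between the PGC-ESC BaxKO and PGC-ESC DKO lines, which differ in genotype, strain and Rn45s set at the same time, 23.6% of all tested genes were called and 0 of the 5 were. At an unadjusted p of 0.05 there were 0, and DESeq2 called 0. The median log2 fold change of the 5 genes was 0.01 and that of all genes 0.02. Meg3 had 0.21 ± 0.60, and its 5 PGC-ESC BaxKO values lay on both sides of the 3 PGC-ESC DKO values. These comparisons share groups with one another (ESC Host, ESC BaxKO and both PGC-ESC groups each enter more than 1), so their values are not independent.

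The 2 ESC BaxKO lines stood apart from the 4 ESC Host lines at this locus without passing the test. In ESC BaxKO against ESC Host 5.02% of all tested genes were called and 0 of the 5, with 2 of the 5 at an unadjusted p of 0.05 and 0 by DESeq2. Meg3 (438 and 485 CPM against 73.8 to 265 CPM), Rian, Mirg and Rtl1 were higher in both ESC BaxKO lines than in every ESC Host line, and Dlk1 was lower in both (0.0722 and 0.187 CPM against 0.264 to 1.36 CPM). Of all tested genes 14.8% lay higher and 11.7% lower without overlap. The log2 fold change was 1.56 ± 0.68 for Meg3 (edgeR adjusted p = 0.201) and -2.59 ± 1.07 for Dlk1 (adjusted p = 0.178). Both ESC BaxKO lines hold Y-linked RNA and no ESC Host line does above 3.84 CPM. With that as a term the values were 0.67 for Meg3 (adjusted p = 0.786) and -1.30 for Dlk1 (adjusted p = 0.658). Among the libraries with high Rn45s, Meg3 had 1.90 (edgeR adjusted p = 0.0431) where 6.13% of all tested genes were called, and among those with low Rn45s 1.28 (adjusted p = 0.812). Each of these 2 values sets 1 ESC BaxKO library against 2 ESC Host libraries, and the lone library is assumed to vary like the other groups.

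In the conversion to EpiLCs all 5 genes were higher in each of the 5 EpiLC lines than in the line it came from. Meg3 had 843, 738 and 476 CPM in EpiLC DKO lines 1 to 3, against 251, 234 and 111 CPM in PGC-ESC DKO lines 1 to 3. It had 401 and 338 CPM in EpiLC Host lines 3 and 4, against 163 and 73.8 CPM in ESC Host lines 3 and 4. The ratio within a line was 3.36, 3.16 and 4.27 in DKO lines 1 to 3 and 2.45 and 4.58 in Host lines 3 and 4, and the order of the lines within each genotype was the same before and after conversion.

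Rian and Mirg moved by about as much. Rian had 783, 749 and 459 CPM in EpiLC DKO and 432 and 390.1 CPM in EpiLC Host, and its ratio to the parent line ran from 2.71 to 5.54. Mirg had 62.9, 55.2 and 36.1 CPM in EpiLC DKO and 28.0 and 27.2 CPM in EpiLC Host, with ratios of 2.23 to 3.84. Rtl1 had 10.0, 11.0 and 7.09 CPM in EpiLC DKO and 7.32 and 4.56 CPM in EpiLC Host, with ratios of 3.06 to 6.12. All 5 genes were higher without overlap in EpiLC DKO than in PGC-ESC DKO, as were 39.9% of all tested genes, and in EpiLC Host than in ESC Host, as were 33.5%. No EpiLC line was below its own parent for any of these genes, and EpiLC DKO 1 and 2 exceeded every stem cell line for each of them.

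Dlk1 changed most. It had 28.0, 25.3 and 12.3 CPM in EpiLC DKO lines 1 to 3 and 15.5 and 15.8 CPM in EpiLC Host lines 3 and 4, against at most 1.72 CPM in any stem cell library. Within lines it was 39.6 times the parent in DKO 1, 15.9 times in DKO 3, 16.7 times in Host 3 and 45.3 times in Host 4. In DKO 2, whose parent had 3 counts, the ratio was 120.0 with an exact 95% counting interval of 40.9 to 583. Per 100 Meg3 counts Dlk1 stood at 2.58 to 4.66 in the EpiLC libraries, against 0.0165 to 2.73 in the stem cell libraries, where PGC-ESC BaxKO 1 was the highest.

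**Figure D3:**
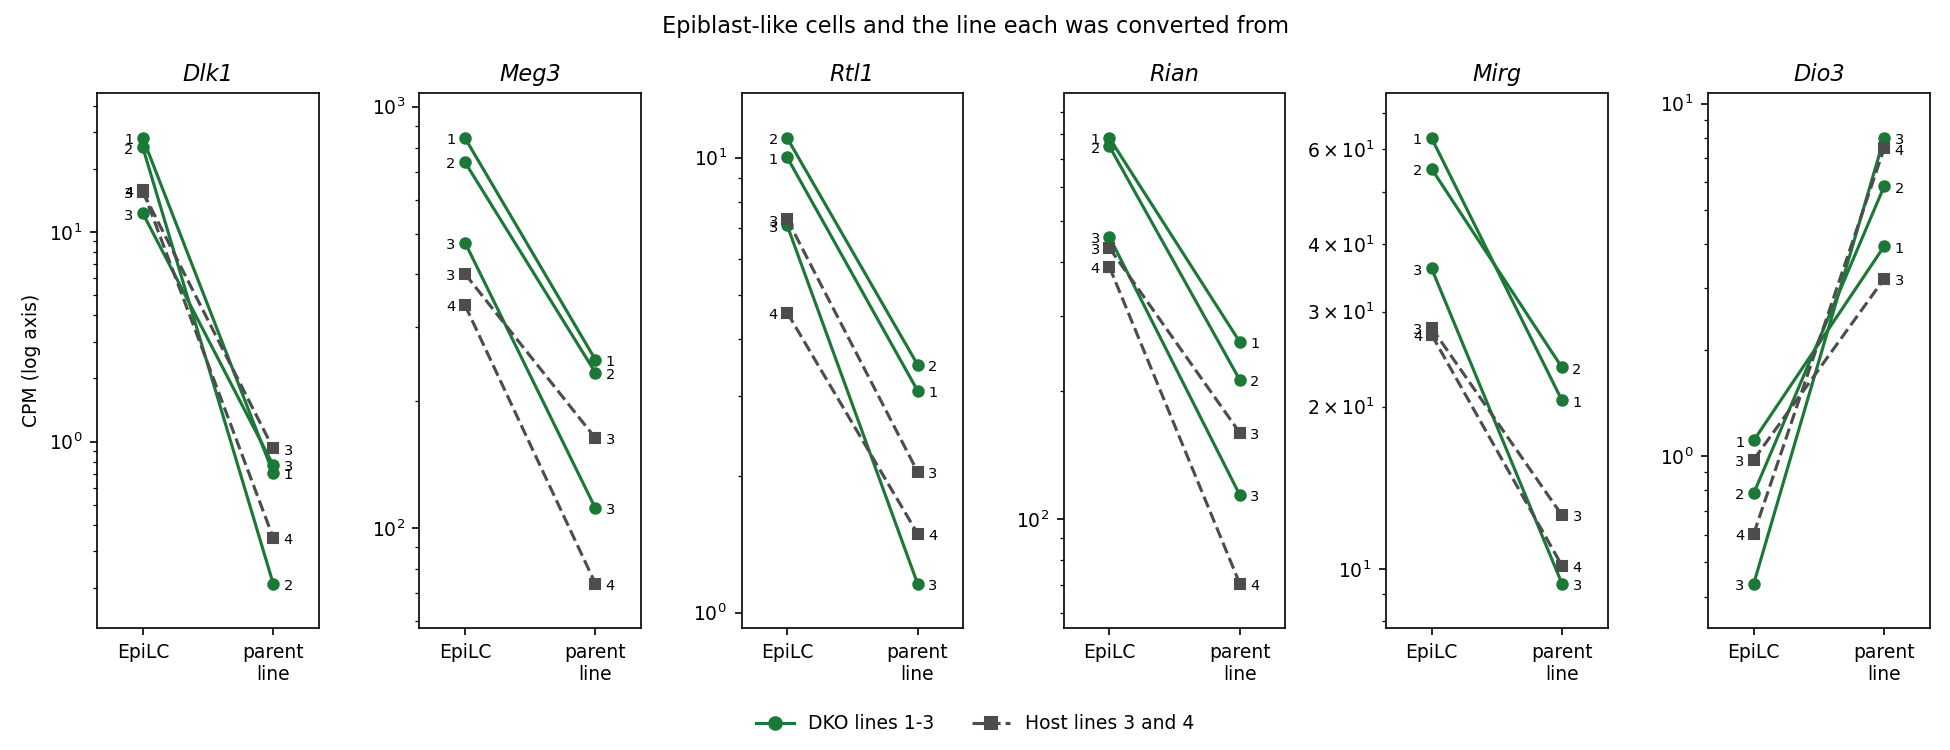
CPM of the 5 cluster genes and Dio3 in EpiLCs (left) and in the line each was converted from (right), on log axes, with 1 connecting line per cell line and line numbers beside the points. The 5 cluster genes lie higher in EpiLCs in all 5 lines, with Dlk1 at 12.3 to 28.0 CPM against 0.210 to 0.928 CPM, and Dio3 lies lower in all 5.

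In the comparison of group means, edgeR called 1 of the 5 genes in each response, and it was Dlk1. DESeq2 called 2 in the DKO response (46.8% of all genes it tested) and 1 in the Host response (42.3%). In EpiLC DKO against PGC-ESC DKO 47.6% of all tested genes were called, 25.1% as higher. The log2 fold change was 5.02 ± 0.80 for Dlk1 (adjusted p = 6.25e-05), and 1.56 ± 0.69 for Meg3 (adjusted p = 0.0690), 1.54 ± 0.65 for Rian (0.0600), 1.30 ± 0.63 for Mirg (0.0960) and 1.63 ± 0.74 for Rtl1 (0.0783). In EpiLC Host against ESC Host 44.0% were called, 22.4% as higher. Dlk1 had 4.26 ± 0.71 (adjusted p = 0.0001), Meg3 1.17 ± 0.69 (0.177), Rian 1.38 ± 0.65 (0.0960), Mirg 1.03 ± 0.64 (0.203) and Rtl1 1.60 ± 0.75 (0.0912). The median of the 5 genes was 1.56 in the DKO and 1.38 in the Host response, where that of all genes was 0.01 and -0.03.

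With cell line as a block, over the 10 libraries of the 5 converted lines, all 5 genes were called as higher in both responses. In EpiLC DKO against PGC-ESC DKO, where 52.4% of 15436 tested genes were called and 27.6% as higher, Meg3 had a log2 fold change of 1.62 ± 0.19 (edgeR adjusted p = 6.49e-05), Rian 1.59 ± 0.19 (8.28e-05), Mirg 1.37 ± 0.18 (0.000169), Rtl1 1.71 ± 0.29 (0.000712) and Dlk1 5.00 ± 0.41 (7.44e-06). In EpiLC Host against ESC Host, where 45.1% were called and 24.1% as higher, Meg3 had 1.51 ± 0.23 (0.00056), Rian 1.72 ± 0.24 (0.000305), Mirg 1.05 ± 0.22 (0.00382), Rtl1 1.51 ± 0.35 (0.00645) and Dlk1 4.37 ± 0.47 (6.68e-05). The compared groups alone also gave 5 called genes in the DKO response (55.7% of all tested genes) and 5 in the Host response (36.2%), and the libraries with high Rn45s gave 5 (51.4%) and 5 (44.0%). In the DKO response the SE of Meg3 was 0.19 with the block and 0.69 without it. The fit of all groups takes its spread from every line, PGC-ESC BaxKO included, and without PGC-ESC BaxKO 5 it called 5 genes in the DKO response and 3 in the Host response. Many genes outside the cluster were called as higher too, as the shares above give.

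The 2 EpiLC groups were not called apart. In EpiLC DKO against EpiLC Host 0 of the 5 genes passed, against 7 of all tested genes (0.0428%). At an unadjusted p of 0.05 there were 0, and DESeq2 called 0. Meg3 (476 to 843 CPM in EpiLC DKO against 338 and 401 CPM in EpiLC Host), Rian and Mirg did not overlap between the groups, as 11.7% of all tested genes did in that direction. The log2 fold change of Meg3 was 0.90 ± 0.77 (edgeR adjusted p = 1). For the difference between the DKO and Host responses 0 of the 5 passed, against 1 of all tested genes (0.00611%), with 0 at an unadjusted p of 0.05 and 0 by DESeq2. With line as a block that difference was 0.11 ± 0.29 for Meg3 and 0.63 ± 0.65 for Dlk1.

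**Figure D4:**
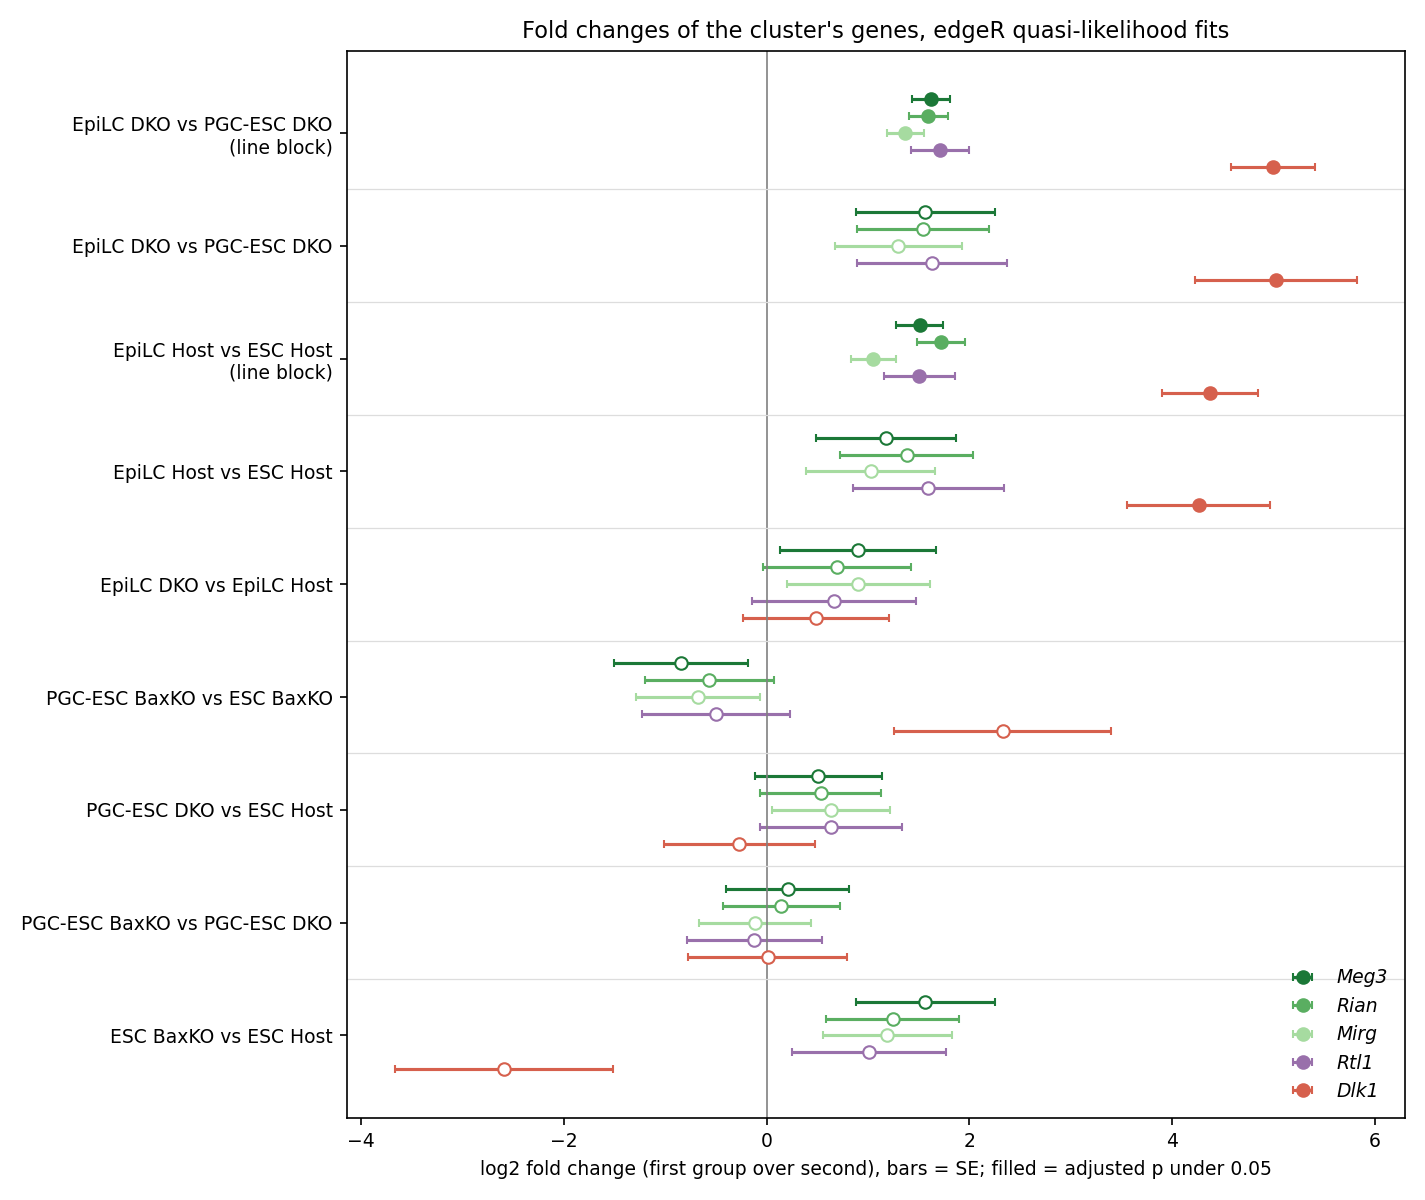
log2 fold changes with SE of the 5 cluster genes in 7 comparisons (first group over second), with the 2 EpiLC responses also shown with cell line as a block; filled points passed an adjusted p of 0.05. Only Dlk1 passes without the block, in both EpiLC responses, at 5.02 and 4.26, and all 5 genes pass with it.

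Several markers of fibroblasts, cells which also make Meg3 and Dlk1 in the mouse, were higher in EpiLCs as well. The summed level of 11 fibroblast and feeder markers was 33.2 to 35.0 CPM in EpiLC DKO and 33.9 to 37.7 CPM in EpiLC Host, against 4.64 to 10.9 CPM among PGC-ESC DKO lines and 6.81 to 19.2 CPM in ESC Host. Of 7 tested markers 5 rose in each response by edgeR, where 25.1% and 22.4% of all tested genes did: Dcn, Col1a2, Thy1, Twist1 and Twist2. Twist1, a mesenchymal transcription factor, had 10.5 to 15.7 CPM in EpiLCs, against 1.76 to 3.72 CPM in the PGC-ESC DKO and ESC Host lines, and the surface protein gene Thy1 had 5.15 to 10.7 CPM against 0.677 to 1.89 CPM. Col1a2, a collagen gene, had 1.87 to 5.23 CPM in EpiLCs against 0 to 0.322 CPM, and Twist2 0.746 to 1.80 CPM against 0 to 0.0757 CPM. Dcn had 1.61 to 4.79 CPM in EpiLCs against 0 to 0.129 CPM, Col3a1 0.128 to 0.337 CPM in EpiLCs, and Postn was at 0 in 4 of the 5 EpiLC libraries. Col1a1, another collagen gene, and Pdgfrb, a receptor of mesenchymal cells, were tested and passed in neither response. Col1a1 had 59 to 160 counts in EpiLCs, against 47 to 52 in PGC-ESC DKO and 40 to 111 in ESC Host. Pdgfrb had 0.979 and 1.17 CPM in EpiLC Host, against 1.14 to 9.12 CPM in ESC Host. The part of such cells in the change of the cluster was not tested.

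Dio3, the paternal gene at the other end (a deiodinase that inactivates thyroid hormone), went the other way. It had 1.11, 0.786 and 0.435 CPM in EpiLC DKO lines 1 to 3, against 3.94, 5.82 and 7.98 CPM in their PGC-ESC DKO parents, and 0.979 and 0.603 CPM in EpiLC Host lines 3 and 4, against 3.18 and 7.46 CPM in ESC Host lines 3 and 4. Dio3 was lower in each EpiLC line than in its parent, and the groups did not overlap. The log2 fold change was -3.06 ± 0.49 in the DKO response (edgeR adjusted p = 6.17e-05) and -3.78 ± 0.57 in the Host response (adjusted p = 4.19e-05). Dio3os, the transcript that runs opposite to Dio3, fell in the Host response (-1.84 ± 0.63, adjusted p = 0.0242) and had -1.52 ± 0.66 in the DKO response (adjusted p = 0.0651). It had 1 to 6 counts in the EpiLC libraries, against 5 to 7 in PGC-ESC DKO and 8 to 24 in ESC Host. The ratio of Dio3os to the parent line was 0.500 in Host 3 (exact counting interval 0.116 to 1.69) and 0.474 in Host 4 (0.122 to 1.64). In DKO lines 1 to 3 it was 1.17, 0.107 and 0.276, and only in DKO 2 did the interval lie below 1. ESC Host 1 and 2, which have no EpiLC library, had 17 and 24 counts and enter the Host call. Dio3os was not tested with line as a block. Reads of Dio3 and Dio3os may also be mixed, since the counting strand is unknown.

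Among 33 further transcripts listed for the locus 20 were in the table and 4 were tested: Dio3, Dio3os, Mir377 and Begain, a gene beyond Dlk1. Begain fell in ESC BaxKO against ESC Host (1.36 and 1.66 CPM against 2.75 to 6.93 CPM, log2 fold change -1.63 ± 0.36, edgeR adjusted p = 0.0148). It also fell in PGC-ESC BaxKO against PGC-ESC DKO (2.14 to 4.39 CPM against 4.40 to 5.60 CPM, -0.94 ± 0.27, adjusted p = 0.0214). In that comparison Dio3os rose (1.47 ± 0.51, adjusted p = 0.0445). The 5 cluster genes passed in neither. Of these 4 transcripts 0 passed in PGC-ESC BaxKO against ESC BaxKO and 0 in PGC-ESC DKO against ESC Host.

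Most small RNA genes of the locus lie within or between the maternal RNAs, and no allele was told apart in these counts. Between the start of Dlk1 and the end of Dio3 the table had 56 genes, 42 of them microRNA genes with 1133 counts in all and 7 small nucleolar RNA genes with 6582 counts, beside 331141 counts in 4 long non-coding RNAs. In poly(A)-selected RNA such rows count reads of longer RNA over the gene, not the mature small RNA. The 7 small nucleolar RNA rows summed to 31.4, 28.4 and 19.8 CPM in EpiLC DKO lines 1 to 3 and 17.5 and 14.3 CPM in EpiLC Host. They summed to 3.87, 19.9, 2.61, 6.90 and 28.0 CPM in PGC-ESC BaxKO lines 1 to 5, 8.33, 7.72 and 4.18 CPM in the PGC-ESC DKO lines, 16.6 and 15.9 CPM in ESC BaxKO, 6.96 CPM in ESC BaxHet and 4.50, 13.9, 4.30 and 1.99 CPM in ESC Host. PGC-ESC BaxKO 5 was again highest among the stem cell lines, while ESC Host 4 and not a PGC-ESC BaxKO line was lowest. The 42 microRNA rows summed to 0.430 and 0.314 CPM in PGC-ESC BaxKO lines 1 and 3 (7 and 6 counts) and to 3.85 CPM in line 5 (89 counts).

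With line as a block, 11 genes between Dlk1 and Dio3 other than the 5 were tested, of which 6 rose and 1 fell in the DKO response and 2 rose and 1 fell in the Host response. Of all genes tested in that fit 52.4% were called in the DKO response, 27.6% as higher. In the Host response 45.1% were called, 24.1% as higher, and the 2 of 11 that rose there did not exceed the share of all genes. Sparse rows could pass the filter on low counts through the EpiLC libraries alone, where they are high. DQ267100 in Rian, one of the 6, had 8 to 27 counts in EpiLC DKO and 1 to 7 in PGC-ESC DKO. The numbers of genes that rose are therefore not evidence about the locus beside the shares of all genes. AF357359, the small nucleolar RNA gene in Rian with most counts, rose in both responses, by 1.77 ± 0.21 in DKO (edgeR adjusted p = 6.99e-05) and 2.21 ± 0.26 in Host (adjusted p = 0.000123) on the log2 scale. DQ267102, another within Rian, rose by 2.77 ± 0.56 (adjusted p = 0.00239) and 1.97 ± 0.68 (adjusted p = 0.0388). Mir3072 rose by 1.50 ± 0.43 in DKO (adjusted p = 0.0155) and had 0.81 ± 0.59 in Host (adjusted p = 0.292). Dio3 was the one that fell (-3.02 ± 0.49 in DKO, adjusted p = 0.00062, and -2.87 ± 0.61 in Host, adjusted p = 0.00381).

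**Figure D5:**
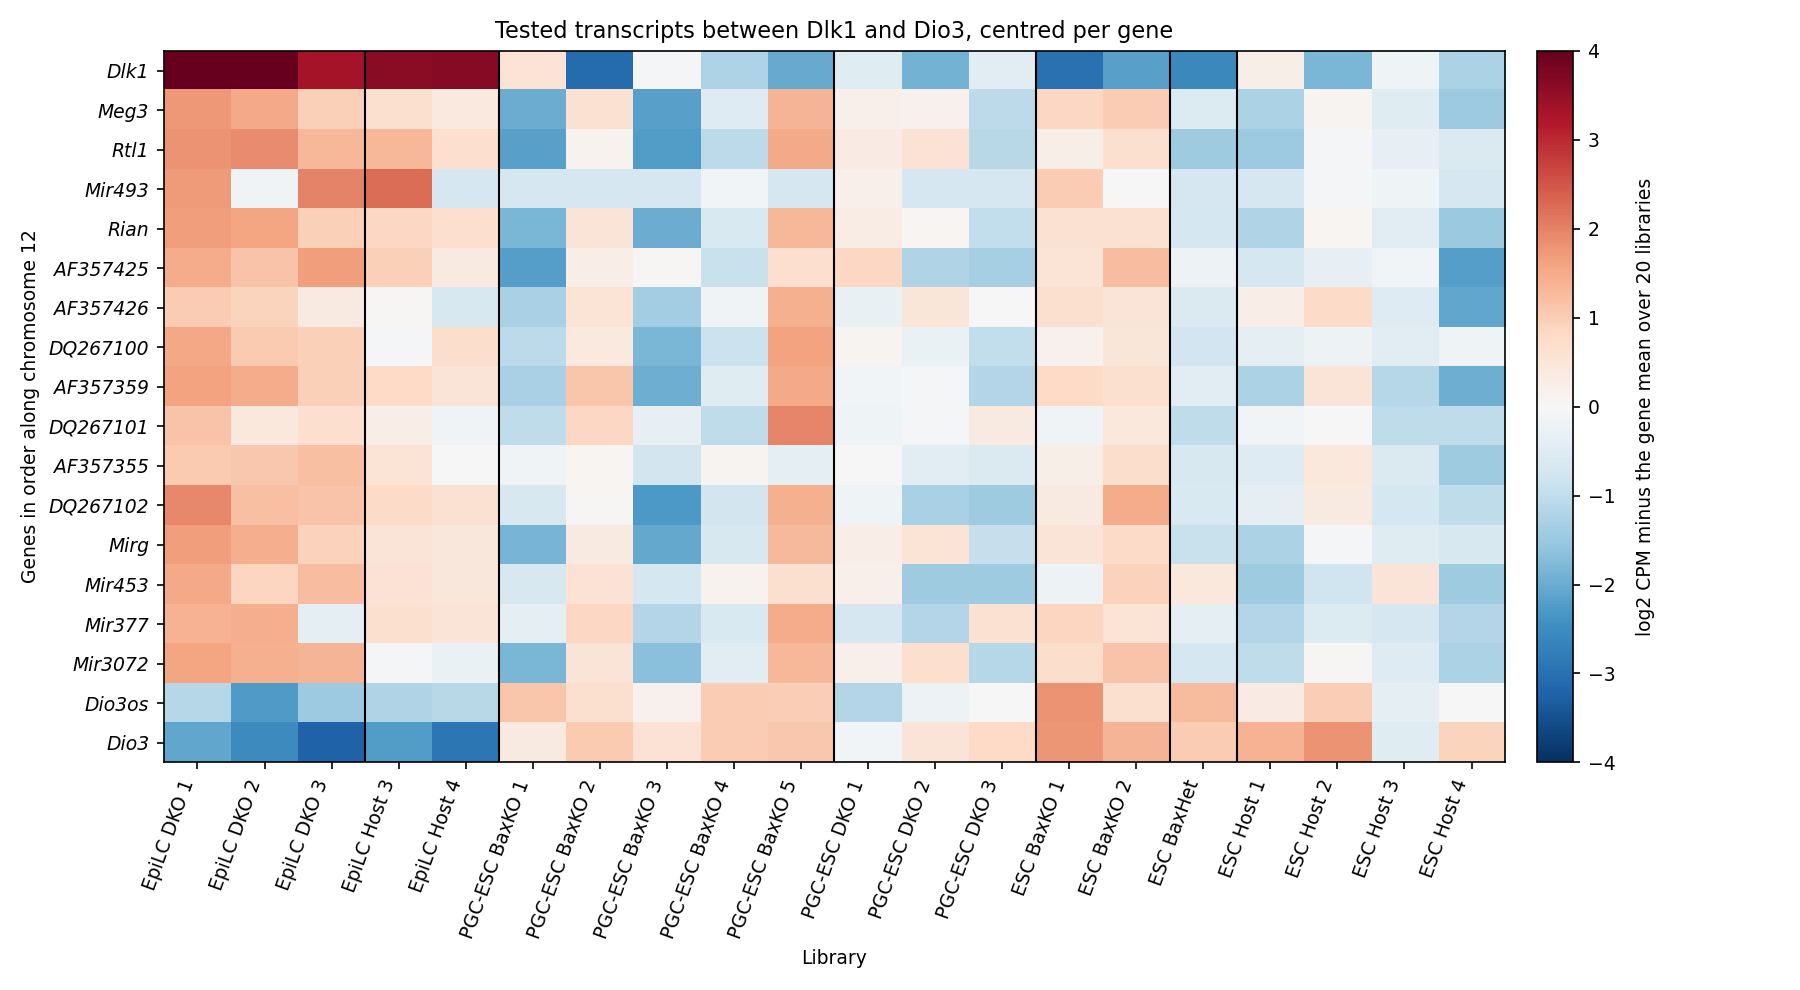
log2 CPM of the 18 tested genes from Dlk1 to Dio3, each centred on its mean over the 20 libraries, in order along the chromosome (rows) and by library (columns, groups divided by black lines). Most rows from Meg3 to Mir3072 are low in PGC-ESC BaxKO 3 and high in PGC-ESC BaxKO 5 and EpiLC DKO, with exceptions among the sparse small RNA rows such as Mir493 and AF357355, the Dlk1 row is highest in EpiLCs, and the Dio3os and Dio3 rows are low in EpiLCs.

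Genes on either side of the domain were called in EpiLCs in both directions, at 6 and 5 of 13 in the DKO and Host responses, close to the 47.6% and 44.0% of all tested genes. Of these 13 tested neighbours 0 passed in PGC-ESC BaxKO against ESC BaxKO, 0 in PGC-ESC DKO against ESC Host and 0 in ESC BaxKO against ESC Host. Degs2, a sphingolipid enzyme, rose in PGC-ESC BaxKO against PGC-ESC DKO (0.90 ± 0.26, edgeR adjusted p = 0.0195). In EpiLC DKO against PGC-ESC DKO 3 rose (Evl 0.68 ± 0.17, Degs2 1.09 ± 0.28, Slc25a29 1.85 ± 0.52) and 3 fell (Ppp2r5c -0.45 ± 0.12, Hsp90aa1 -0.54 ± 0.14, Wdr20 -0.47 ± 0.14). In EpiLC Host against ESC Host the same 3 rose (Evl 0.78 ± 0.17, Degs2 1.07 ± 0.28, Slc25a29 1.51 ± 0.50) and 2 fell (Ppp2r5c -0.79 ± 0.13, Hsp90aa1 -0.70 ± 0.15). Their median was 0.13 in the DKO and 0.06 in the Host response, beside medians of 1.56 and 1.38 for the 5 cluster genes.

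Of 9 tested genes that keep imprints 4 fell and 0 rose in each EpiLC response, where 22.5% of all tested genes fell in the DKO and 21.7% in the Host response, and none was called between PGC-derived and embryo-derived lines by edgeR. Zfp57, which binds the methylated copy of imprint control regions, had 58.8, 59.4 and 90.1 CPM in EpiLC DKO, against 498, 555 and 559 CPM in the PGC-ESC DKO lines, with no overlap (-3.15 ± 0.23, edgeR adjusted p = 1.09e-08). It also fell in EpiLC Host (-3.14 ± 0.27, adjusted p = 6.51e-08), with Uhrf1, which guides maintenance methylation (-0.73 ± 0.15), Trim28, the cofactor of Zfp57 (-0.75 ± 0.18), and Dppa3, which protects imprints in the early embryo (-2.31 ± 0.59), and the same 4 genes fell in the DKO response. In PGC-ESC BaxKO against ESC BaxKO and in PGC-ESC DKO against ESC Host 0 of the 9 passed. Zfp57 fell in PGC-ESC BaxKO against PGC-ESC DKO (-0.56 ± 0.19, adjusted p = 0.0372) and Zfp445, another imprint-protecting zinc finger protein, rose (0.44 ± 0.13, adjusted p = 0.0228).

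Of 6 tested genes of DNA methylation and demethylation 3 rose and 1 fell in the DKO response and 4 rose and 2 fell in the Host response, beside 25.1% higher and 22.5% lower of all tested genes in DKO and 22.4% and 21.7% in Host. Dnmt3a and Dnmt3b, the de novo methyltransferases, rose in EpiLC DKO (3.95 ± 0.39 and 2.82 ± 0.29) and in EpiLC Host (2.52 ± 0.35 and 2.90 ± 0.28), and the demethylase gene Tet2 fell (-2.72 ± 0.39 and -3.21 ± 0.46). Among 8 tested Polycomb and locus regulators 1 rose and 4 fell in the DKO response, and 1 rose and 5 fell in the Host response, beside the same shares of all genes. The one that rose was Aff3, whose protein binds the control region between Dlk1 and Meg3 in mouse ESCs. It had 45.7, 44.5 and 40.2 CPM in EpiLC DKO against 0.631 to 3.09 CPM in PGC-ESC DKO (4.18 ± 0.46, edgeR adjusted p = 1.19e-06). Prdm14 had 0.150 to 0.498 CPM in EpiLC DKO against 46.0 to 57.1 CPM in PGC-ESC DKO, and Eed fell (-1.22 ± 0.14, adjusted p = 2.79e-06).

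Imprinted genes elsewhere in the genome moved in both directions in EpiLCs. Of 20 tested genes on a list of maternally expressed genes outside chromosome 12, 11 rose and 2 fell in the DKO response, and 10 rose and 2 fell in the Host response. That list also holds Airn, which is expressed from the paternal copy. Of 22 tested paternally expressed genes 11 rose and 5 fell in the DKO response, and 10 rose and 5 fell in the Host response. Of all tested genes 25.1% rose and 22.5% fell in DKO, and 22.4% rose and 21.7% fell in Host. In PGC-ESC BaxKO against ESC BaxKO 1 gene of these lists was called, Cdkn1c, a maternally expressed cell cycle inhibitor (1.10 to 2.77 CPM against 9.21 and 9.83 CPM, log2 fold change -2.26 ± 0.37, edgeR adjusted p = 0.0487). That call was lost in some alternatives. With RLE scaling, the compared groups only or Y-linked expression as a term, 0 of all tested genes were called in this comparison. In the same lines the groups overlapped for Meg3.

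Across all 20 libraries the genes whose levels followed Meg3 most closely, outside the 5, were Mir3072 (Spearman rho = 0.956), AF357359 (0.953), DQ267100 (0.908), the zinc finger gene Zfp532 (0.905) and the potassium channel gene Kcnh8 (0.890). The first 3 lie inside Mirg or Rian. Among the 5 cluster genes rho with Meg3 was 0.974 for Rian, 0.965 for Mirg and 0.938 for Rtl1, but 0.0827 for Dlk1. Kcnh8 had 0 and 0.0523 CPM in PGC-ESC BaxKO lines 1 and 3 and 3.24 CPM in line 5. The genes closest to Dlk1 were Flt4 (0.962), a receptor of vascular growth factors, Igsf11 (0.959), Kcng1 (0.946), Dusp5 (0.944), a phosphatase induced by ERK, and Foxa1 (0.943), a forkhead factor, which tied with Hic1 and Mmp15. Dusp5 had 21.9 to 26.8 CPM in EpiLC DKO and 27.7 and 32.1 CPM in EpiLC Host, against 3.72 to 7.47 CPM among PGC-ESC DKO lines and 3.43 to 5.91 CPM in ESC Host. Within PGC-ESC BaxKO, Igsf11 had 1.41, 0, 0.993, 0.565 and 0.0865 CPM in lines 1 to 5, the same order as Dlk1. These correlations are descriptions over 20 libraries that share depth and the EpiLC change.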

How the data were processed

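Poly(A)-selected RNA of 20 mouse libraries was sequenced. The deposited file holds whole-number read counts per gene, not normalised; reads were aligned with STAR 2.7.7a to mm10, per the submitters' processing notes, and the sources used here do not give the counting tool, annotation or strand setting. Levels are CPM over the library total (14255399 to 33376660 counts). Comparisons used edgeR 4.0.16 in R 4.3.3 (quasi-likelihood F test, TMM scaling, filterByExpr, 7 group coefficients, 20 libraries, 13 residual degrees of freedom). The 16363 genes that passed the filter were tested, 4998 were not, and p-values were Benjamini-Hochberg adjusted over all of them, with calls at adjusted p under 0.05. Correlations used log2 CPM with a prior count of 2. EpiLC libraries were paired with their parents because they come from the same cell lines. Deviations of same-line libraries from their group means correlated at 0.0931 to 0.172. Paired fits had 3 residual degrees of freedom. Alternatives were RLE scaling, DESeq2 1.42.0, no filter, the compared groups only, a replicate block, Rn45s set or Y-linked expression as a term, each library left out and, added after seeing the data, fits within an Rn45s set (divided at 10000 CPM). The scripts were tested on simulated data. Named genes were the 5 cluster genes, every called gene of the locus and neighbour lists, up to 3 called genes of smallest adjusted p in other lists, and the 5 genes most like Meg3 and Dlk1. Dppa3 and the fibroblast markers beyond 3 (Col1a1, Col3a1, Postn and Pdgfrb uncalled in the EpiLC responses) were named outside this rule, after their values were seen. The cluster genes and the lists were chosen with earlier results of these data known. Positions and sequences are from RefSeq (GRCm38.p6), and exon lengths from GENCODE on the same build.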

Additional observations from a re-analysis of the deposited data

Results flagged for a closer look

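No library stood far enough from the rest of its group to be named here, in 20 groups of values examined (10 genes of the locus in the 4 ESC Host and the 5 PGC-ESC BaxKO lines), and the difference between the 2 EpiLC responses passed the test for 0 of the 5 cluster genes.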

How the results depend on the processing

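Of 1255 fold changes of the cluster genes recomputed under the alternatives, 1153 kept their direction and their side of the threshold, 36 passed it in addition, 0 lost it and 66 changed sign, of which 46 came from leaving out 1 library. Of the 1153, 844 came from leaving out 1 library, often a library of neither compared group, which can move a fold change little. Most comparisons also called 0 of the 5 genes to begin with. The 1153 are therefore no measure of how stable the results are. Cell line, as a replicate block, gave 5 called cluster genes in EpiLC Host against ESC Host and 5 in EpiLC DKO against PGC-ESC DKO, where 1 was called in each without it. The compared groups alone gave 5 and 5, the high Rn45s set 5 and 5, and DESeq2 1 and 2. Leaving out 1 library gave 1 to 3 in the Host response (3 without PGC-ESC BaxKO 5) and 1 to 5 in the DKO response (3 without PGC-ESC BaxKO 1 or 3, 5 without PGC-ESC BaxKO 5). In ESC BaxKO against ESC Host the high Rn45s set gave 1 called cluster gene, Meg3, where 0 were called over all libraries; that set holds 1 ESC BaxKO library, assumed to vary like the other groups.

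Counts of called genes over the whole table moved more. In PGC-ESC BaxKO against ESC BaxKO 6 were called, with 0 under RLE scaling, 71 with DESeq2, 10 with no filter, 0 with the compared groups only, 2 with the Rn45s set as a term, 0 with Y-linked expression as a term, 2 within the low Rn45s set, and 0 to 12 without 1 library. In PGC-ESC DKO against ESC Host 19 were called, with 90 by DESeq2, 9 with the compared groups only and 14 to 44 without 1 library (44 without ESC Host 4). Averaged over both strain labels 13 were called, with 58 by DESeq2 and 6 to 23 without 1 library (23 without PGC-ESC BaxKO 2, 21 without PGC-ESC BaxKO 5, 6 without ESC BaxKO 1). In ESC BaxKO against ESC Host 821 were called, with 1419 by DESeq2, 136 with the compared groups only, 406 with the replicate block, 210 with the Y-linked term, 33 within the low Rn45s set and 182 to 1015 without 1 library (245 without ESC BaxKO 1, 182 without ESC BaxKO 2, 537 without ESC Host 3). In PGC-ESC BaxKO against PGC-ESC DKO 3858 were called, with 204 with the Rn45s term and 1552 to 4757 without 1 library (1552 without PGC-ESC DKO 2). In EpiLC DKO against EpiLC Host 7 were called, with 33 by DESeq2 and 5 to 11 without 1 library. For the difference of the EpiLC responses 1 was called, with 5 by DESeq2, 0 with the compared groups only, 0 with the replicate block, 2 with the Y-linked term, 0 within the high Rn45s set and 0 to 3 without 1 library.

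The log2 values that changed sign were all uncalled. In PGC-ESC DKO against ESC Host Dlk1 was 0.17 with the Y-linked term and -0.55 to 0.15 without 1 library. Averaged over both strain labels, Rian was 0.000388 under RLE scaling, 0.000118 with DESeq2, 0.00801 with the compared groups only and 0.0473 with the Y-linked term. Mirg was 0.00130 with the compared groups only and 0.0421 with the Y-linked term, and Rtl1 -0.43 with the replicate block. Without 1 library the averaged values were -0.49 to 0.0148 for Meg3, -0.34 to 0.16 for Rian, -0.36 to 0.14 for Mirg and -0.41 to 0.25 for Rtl1. In PGC-ESC BaxKO against PGC-ESC DKO the replicate block gave -0.51 for Meg3 and -0.54 for Rian, the Rn45s term -0.0494 for Meg3, -0.16 for Rian and 0.14 for Rtl1, and the Y-linked term -0.14 for Dlk1, -0.31 for Meg3 and -0.34 for Rian. Without 1 library these were -0.61 to 0.35 for Dlk1, -0.44 to 0.47 for Meg3, -0.51 to 0.40 for Rian, -0.79 to 0.17 for Mirg and -1.07 to 0.18 for Rtl1. For the difference of the EpiLC responses Rian was -0.12 with the replicate block, -0.00640 with the Rn45s term and -0.0870 within the high Rn45s set, and Rtl1 -0.0267 with the Y-linked term. Without 1 library it was -0.18 to 0.42 for Rian, -0.0512 to 0.56 for Mirg and -0.32 to 0.42 for Rtl1. Except for smaller sample or gene numbers in the restricted fits, the cause was not tested. Outside the EpiLC pairs, lines of 2 groups share only a number, and their deviations correlated at -0.236 to 0.0489. Depth limits Dlk1 in stem cells, where 2 to 36 counts stand behind each value.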
